A study of Mus musculus with 16 samples.

Results

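The comparison described here sets liver RNA of FVB/NCrl mice exposed to 10 mg/L diphenyl phosphate (DPhP) against liver RNA of untreated mice of the same strain. It was chosen by the dose on the labels and uses 8 of the 16 libraries of the study, the 4 of the 10 mg/L group (C3-1 to C3-4) and the 4 of the untreated group (CTRL-1 to CTRL-4, 0 mg/L). The change is described over 17810 genes that passed a filter on low counts, of 53372 in the deposited table. The other libraries, 4 at 0.1 mg/L (C1) and 4 at 1 mg/L (C2), entered the same model and are set beside C3 where their values bear on it. Livers were pooled within each group, which makes its 4 libraries repeat measurements of the same pool. Their spread, and every SD, SE and p given here, is technical and holds no variation between animals, and a difference between pools cannot be told apart from a difference between the animals in them. Sex, age and route of exposure were not stated in the sources used here.

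DPhP is an aryl phosphate diester formed in the body from triphenyl phosphate, an organophosphate used as a flame retardant and plasticizer. The liver takes up such compounds, conjugates or excretes them, and also controls the body's fatty acid, ketone, cholesterol and glucose supply. Much of its fatty acid oxidation programme is switched on by the nuclear receptor PPARα, its acute phase programme by cytokine signals, and its immediate early genes soon after many kinds of stimulus.

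The C3 libraries held 18854980 to 33189711 counts and the CTRL libraries 24598433 to 33503129. Albumin (Alb), the main secreted protein of hepatocytes, had the most counts when all 16 libraries were summed. 1 library of C3 stood apart. The 4 RNAs checked that stay in the nucleus (Malat1, Neat1, Xist and Kcnq1ot1) summed to 7237 CPM (each count relative to its library's TMM-adjusted total) in C3-4, against 4194 to 4425 CPM in the other C3 libraries and 2833 to 4027 CPM in CTRL. The 12 hepatocyte markers summed to 50593 CPM in C3-4, to 74430 to 82538 CPM in the other C3 libraries and to 90309 to 108012 CPM in CTRL, with no overlap between the groups. C2-3 and C2-4 were also rich in these nuclear RNAs, and for the lists described the count or median is also given without C3-4, or without C3-4, C2-3 and C2-4 (the 3 nuclear-rich libraries), where it differs.

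At 10 mg/L DPhP, 249 of 17810 genes (1.40%) differed from the untreated group at a Benjamini-Hochberg adjusted p under 0.05 in edgeR's quasi-likelihood test, the source of every adjusted p and log2 fold change below. Of these, 93 were higher (0.522% of the genes tested) and 156 were lower (0.876%). The difference was at least 2-fold for 82 genes (0.460%), 32 higher and 50 lower. Among genes that reached 2 CPM in 1 of the groups and were also called without C3-4, those that rose most included a stress-inducible transcription factor (Atf3), serum amyloid A (Saa1) and a core clock gene (Arntl). Those that fell most were genes of the intestinal surface (Muc13, Alpi, Akp3) with little RNA in either group. The 12 also held a pantetheinase (Vnn1) and a fatty acid uptake receptor (Cd36). The median log2 fold change over all tested genes was 0.0045. Protein-coding genes made up 65 of the higher and 135 of the lower genes, and long intergenic noncoding RNAs 9 of the higher and 1 of the lower.

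**Figure D1:**
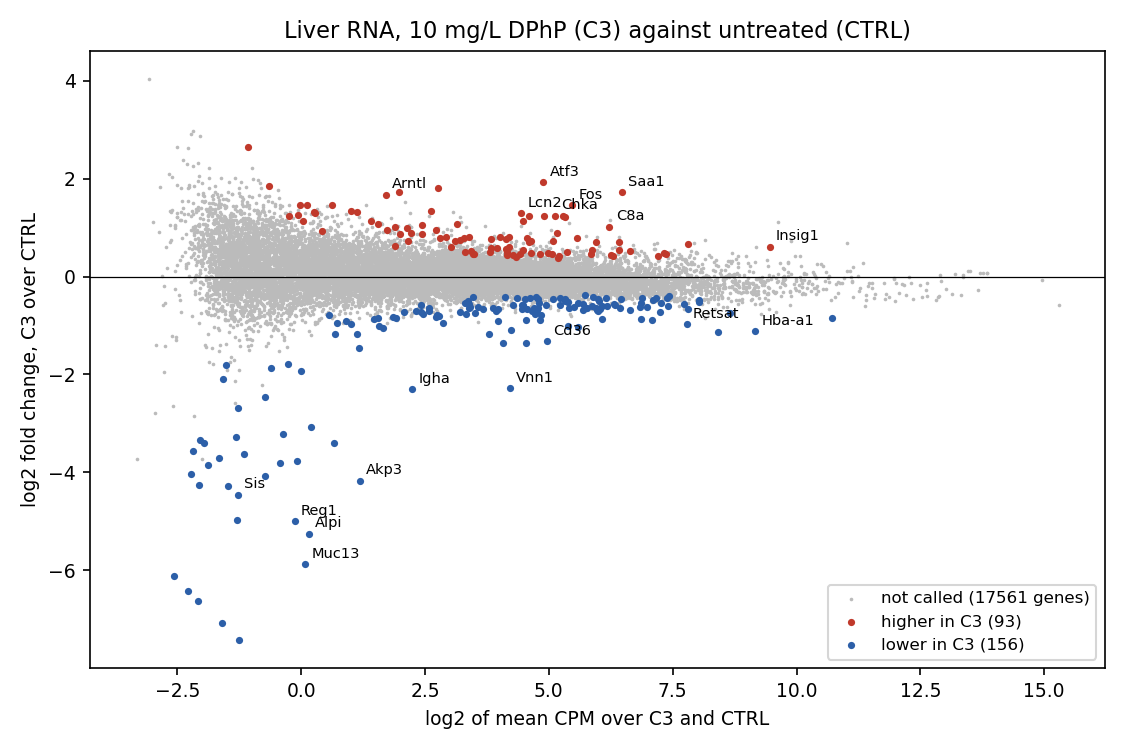
Log2 fold change of C3 over CTRL (vertical axis) against the log2 of the mean CPM over both groups (horizontal axis), 1 point per tested gene, with called genes in red (93 higher) and blue (156 lower). The largest falls sit at the left, among genes of low abundance, and 5 of those blue points had 0 counts in all C3 libraries, so that their position on the vertical axis is a fitted value and no bound.

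Without C3-4, 107 genes were called (0.584%), 32 higher (0.175%) and 75 lower (0.410%), and 104 of them were among the 249. All 249 kept their sign, and the median size of their log2 fold change was 0.922 of that with C3-4. C3-4 was the highest C3 library for 68 of the 93 higher genes (73.1%) and for 37.2% of all tested genes. It was the lowest for 74 of the 156 lower genes (47.4%) and for 34.9% of all tested genes. With C2-3 and C2-4 also left out of the model, 1125 genes were called (6.09%), 445 higher (2.41%) and 680 lower (3.68%), and these included all 249. The C3 and CTRL libraries did not overlap for 246 of the 249, and for 2277 of all tested genes (12.8%; C3 higher in 5.53% and lower in 7.25%). DESeq2 called 768 genes (4.31%), which included all 249, and limma-voom called 254 (1.43%), of which 230 were among the 249.

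**Figure D2:**
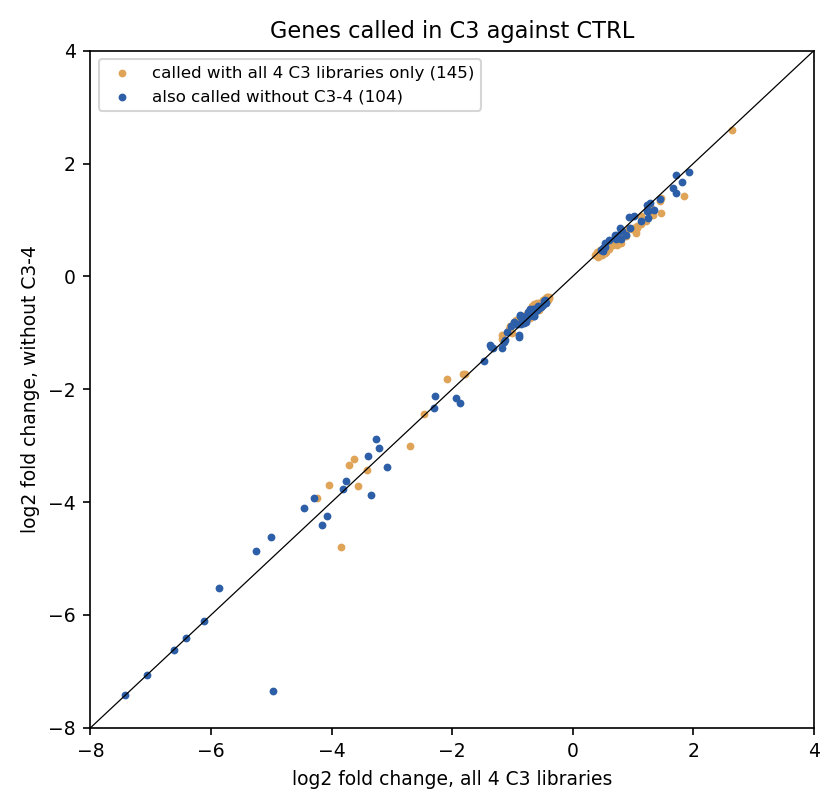
Log2 fold change of C3 over CTRL of the 249 called genes with all 4 C3 libraries (horizontal axis) and without C3-4 (vertical axis), with the 104 genes that were called both ways in blue and those called only with all 4 libraries in orange. The points lie along the diagonal of equal values, and no gene changed sign.

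Among the immediate early genes, whose products are transcription factors and signals made soon after a stimulus, 4 of 26 measured members rose and none fell. The list's median log2 fold change was 0.34, and without C3-4 it was 0.27 with 3 members called. The fit without the 3 nuclear-rich libraries gave 7 higher and 3 lower. Atf3, a stress-inducible repressor and activator of the ATF family, had 38.4, 47.7, 46.6 and 55.4 CPM in C3-1 to C3-4 and 13.8, 11.2, 13.2 and 10.9 CPM in CTRL-1 to CTRL-4. All C3 libraries lay above all CTRL libraries. Its mean was 47.0 ± 6.94 CPM against 12.3 ± 1.44 CPM (SD, n = 4 libraries each), a log2 fold change of 1.93 ± 0.16 (SE, adjusted p = 1.56e-05), and 1.85 without C3-4. Fos, a subunit of the AP-1 transcription factor, had 50.7, 70.2, 62.3 and 76.0 CPM in C3 and 23.4, 23.1, 20.4 and 27.6 CPM in CTRL. The groups did not overlap, and the log2 fold change was 1.45 ± 0.21 (adjusted p = 0.00116). Cyr61, a matrix-associated signalling protein, rose by 1.24 ± 0.14 (log2, adjusted p = 0.000139), from 12.4 to 17.0 CPM in CTRL to 26.0 to 40.4 CPM in C3. Fosb, a relative of Fos, averaged 3.13 ± 0.828 CPM in C3 and 1.26 ± 0.293 CPM in CTRL, a log2 fold change of 1.31 ± 0.29 (adjusted p = 0.0316). That call was lost without C3-2, C3-4 or any 1 of the CTRL libraries, with adjusted p between 0.0543 and 0.119. Members such as Egr2 (log2 fold change 1.01), Nr4a1 (0.73) and Jun (0.67) were not called, and the lowest value in the list was that of Nr4a2 (-1.20).

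Cxcl1, a chemokine that attracts neutrophils, rose by 1.24 ± 0.13 (log2, adjusted p = 8.17e-05), with 36.9 to 49.8 CPM in C3 and 14.7 to 21.3 CPM in CTRL. It was not on the immediate early list. The 250 bases before the RefSeq starts of Atf3, Fos, Cyr61 and Cxcl1 are shown for a motif they hold. Each window has the core of the cyclic AMP response element, TGACGT, on 1 or the other strand. These are the 4 of the 12 genes with the largest rise whose window holds it. The sequences are from RefSeq on GRCm38.p6, and the windows are chr1:191183334-191183583 (minus strand) for Atf3, chr12:85473640-85473889 (plus) for Fos, chr3:145649986-145650235 (minus, under the newer symbol Ccn1) for Cyr61 and chr5:90890995-90891244 (plus) for Cxcl1. Each runs 5′ to 3′ on the gene's strand, and capitals mark every match of 5 motifs searched on both strands. The RefSeq start used for Atf3 lies inside the gene's span in the GENCODE M21 annotation (191170296 to 191218039). The Cxcl1 window runs a few bases past the GENCODE start at 90891241.
Atf3: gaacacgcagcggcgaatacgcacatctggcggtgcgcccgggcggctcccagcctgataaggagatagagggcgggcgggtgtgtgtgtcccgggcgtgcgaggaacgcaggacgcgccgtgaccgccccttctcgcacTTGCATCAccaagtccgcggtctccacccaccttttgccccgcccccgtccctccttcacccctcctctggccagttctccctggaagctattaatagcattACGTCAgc
Fos: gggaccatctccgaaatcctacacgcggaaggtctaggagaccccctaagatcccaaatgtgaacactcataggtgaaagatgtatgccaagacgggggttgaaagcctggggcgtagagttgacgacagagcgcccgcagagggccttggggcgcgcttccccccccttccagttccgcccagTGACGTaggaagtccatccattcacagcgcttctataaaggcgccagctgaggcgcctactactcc
Cyr61: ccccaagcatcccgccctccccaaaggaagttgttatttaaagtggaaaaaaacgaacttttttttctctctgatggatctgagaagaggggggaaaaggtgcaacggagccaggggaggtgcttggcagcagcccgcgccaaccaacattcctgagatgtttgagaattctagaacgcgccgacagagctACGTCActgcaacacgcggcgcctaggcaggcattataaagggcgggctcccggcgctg
Cxcl1: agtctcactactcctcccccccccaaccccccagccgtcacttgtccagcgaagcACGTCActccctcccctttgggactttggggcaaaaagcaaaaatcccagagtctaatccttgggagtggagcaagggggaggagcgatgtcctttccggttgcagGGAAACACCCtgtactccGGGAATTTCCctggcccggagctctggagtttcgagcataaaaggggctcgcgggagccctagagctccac
The TGACGT match begins at base -8 in Atf3, -66 in Fos, -59 in Cyr61 and -195 in Cxcl1, counting -1 as the base just before the start. Atf3 also holds TGATGNAA, the C/EBP-ATF response element, from -110. Cxcl1 holds a form of the NF-kappaB site (GGG, any 2 bases, then TTTCC) from -89 and from -71. No match in these windows overlaps another. TGACGT was found in 6.47% of 32851 promoter windows of the same length, TGATGNAA in 3.45%, the NF-kappaB form in 1.41% and the AP-1 site TGANTCA in 6.75%. The motifs and the genes shown were chosen after the called genes had been seen and with known elements of these promoters in mind, so that the matches are a description of the letters alone.

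Acute phase genes encode plasma proteins that the liver makes in larger amounts during inflammation. Of 29 measured members 5 rose and none fell, with a median log2 fold change of -0.05, which was 0.03 without C3-4. With the 3 nuclear-rich libraries left out, 10 rose and 3 fell. Saa1, an apolipoprotein of inflammation, had 190.0, 119.0, 121.0 and 117.0 CPM in C3-1 to C3-4 and 36.7, 41.5, 48.8 and 38.6 CPM in CTRL-1 to CTRL-4. C3-1 was far above the other C3 libraries, and every C3 library was above every CTRL library. Saa1 rose by 1.72 ± 0.21 (log2, adjusted p = 0.000275), and by 1.80 without C3-4. Its neighbour Saa2 rose by 1.23 ± 0.20 (adjusted p = 0.00238), from 20.9 to 28.7 CPM in CTRL to 47.4 to 72.2 CPM in C3. The 2 genes are near-identical copies, and the treatment of reads that match both was not stated in the sources used here. Lcn2, lipocalin 2, which binds bacterial iron carriers, had 41.1, 27.0, 24.6 and 30.6 CPM in C3 and 13.6, 12.9, 12.2 and 11.7 CPM in CTRL. Its log2 fold change was 1.29 ± 0.18 (adjusted p = 0.000741). Orm3, an orosomucoid, averaged 23.3 ± 4.25 CPM in C3 and 13.3 ± 0.962 CPM in CTRL (log2 fold change 0.80, adjusted p = 0.0146), and its call was lost without CTRL-3 (adjusted p = 0.0608) or CTRL-4 (0.0546). The other called member was the interleukin 1 receptor Il1r1 (log2 fold change 0.47), lost without C3-4, CTRL-3 or CTRL-4 with adjusted p up to 0.073. Without CTRL-3 or CTRL-4 the count was 3 of 29, and without C3-4 it was 4. Classical members were not called, among them Saa3 (-0.34), haptoglobin (Hp, 0.10), the fibrinogen chain gene Fga (-0.42) and the protease inhibitor gene Serpina3n (-0.32). Others that were not called had positive values, such as Orm2 (0.81), Apcs (0.47) and Orm1 (0.36).

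The promoters of Saa1 (chr7:46742981-46743230, minus strand), Saa2 (chr7:46751583-46751832, plus) and Lcn2 (chr2:32387740-32387989, minus) are shown for the same reason as those above. Each holds TTGCNNAA, a form of the site bound by C/EBP factors, in capitals. The Lcn2 window lies inside the gene's GENCODE M21 span (32384633 to 32388252), and that of Saa2 runs past the GENCODE start at 46751790.
Saa1: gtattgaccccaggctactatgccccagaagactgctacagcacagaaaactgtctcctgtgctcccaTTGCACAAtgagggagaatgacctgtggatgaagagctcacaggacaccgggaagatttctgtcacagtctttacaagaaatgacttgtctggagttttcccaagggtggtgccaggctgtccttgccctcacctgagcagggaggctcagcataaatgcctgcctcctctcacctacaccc
Saa2: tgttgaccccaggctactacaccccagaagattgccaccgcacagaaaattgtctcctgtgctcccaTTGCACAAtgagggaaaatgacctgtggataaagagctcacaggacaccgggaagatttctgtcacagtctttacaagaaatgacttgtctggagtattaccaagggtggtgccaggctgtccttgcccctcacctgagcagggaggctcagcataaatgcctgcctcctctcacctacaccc
Lcn2: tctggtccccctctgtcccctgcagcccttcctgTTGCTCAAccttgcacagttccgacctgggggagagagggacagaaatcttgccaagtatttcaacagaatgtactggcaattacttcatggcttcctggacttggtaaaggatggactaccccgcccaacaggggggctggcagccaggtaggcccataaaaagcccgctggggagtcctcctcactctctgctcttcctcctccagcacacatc
The match begins at base -182 in Saa1, -183 in Saa2 and -216 in Lcn2. TTGCNNAA was found in 9.56% of the 32851 windows, and these 3 genes are the only ones of the 12 with the largest rise whose window holds it. None of the other 4 motifs matched in these 3 windows.

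The other genes among the 12 with the largest rise have varied roles. Arntl, which encodes the clock transcription factor BMAL1, had 4.28, 5.15, 4.36 and 6.08 CPM in C3 and 1.64, 1.72, 1.34 and 1.54 CPM in CTRL, a log2 fold change of 1.67 ± 0.20 (adjusted p = 0.000355). It was the only member called by edgeR of 20 circadian clock genes, whose median was 0.02, or -0.05 without C3-4. Members not called included Npas2 (log2 fold change 1.71), Dbp (-0.47) and Ciart (-0.4). Of the clock genes 2 rose and 3 fell without the 3 nuclear-rich libraries. The time of day of sampling was not stated in the sources used here. Chka, choline kinase alpha, which starts phosphatidylcholine synthesis, had 41.0, 39.8, 46.4 and 68 CPM in C3 and 23.1, 20.7, 18.2 and 20.6 CPM in CTRL. C3-4 was the highest library, and the log2 fold change was 1.24 ± 0.20 (adjusted p = 0.00221) with it and 1.04 (0.00623) without it. Chka was the only gene called by edgeR of 31 in glycerophospholipid and choline metabolism (median -0.09, or -0.04 without C3-4), and without the 3 nuclear-rich libraries 1 rose and 3 fell. Pcyt2, of phosphatidylethanolamine synthesis, averaged 514 ± 109 CPM in C3 and 385 ± 27.8 CPM in CTRL (adjusted p = 0.43). Pemt, which methylates phosphatidylethanolamine, averaged 207 ± 53.8 and 225 ± 33.5 CPM (adjusted p = 0.859).

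Clic3, an intracellular chloride channel family member, Paxx, a factor of DNA double-strand break repair, and Ptgds, prostaglandin D2 synthase, lie within 1 stretch of chromosome 2. In GENCODE M21 on GRCm38, Clic3 (25456838 to 25458776, plus strand) lies inside Paxx (25455141 to 25461094, minus strand), and Ptgds spans 25466709 to 25470046. The sources used here do not state a strand setting for the counting, so that the reads of Clic3 and Paxx cannot be told apart with certainty. Clic3 had 5.04, 4.96, 5.4 and 8.86 CPM in C3 and 1.39 to 2.12 CPM in CTRL, and its log2 fold change was 1.72 ± 0.28 (adjusted p = 0.00324). Paxx rose by 1.13 ± 0.15 (adjusted p = 0.000525) and Ptgds by 1.35 ± 0.24 (adjusted p = 0.00632). C3-4 was the highest C3 library for all 3, and without it the values were 1.49, 0.99 and 1.17, each still called.

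**Figure D3:**
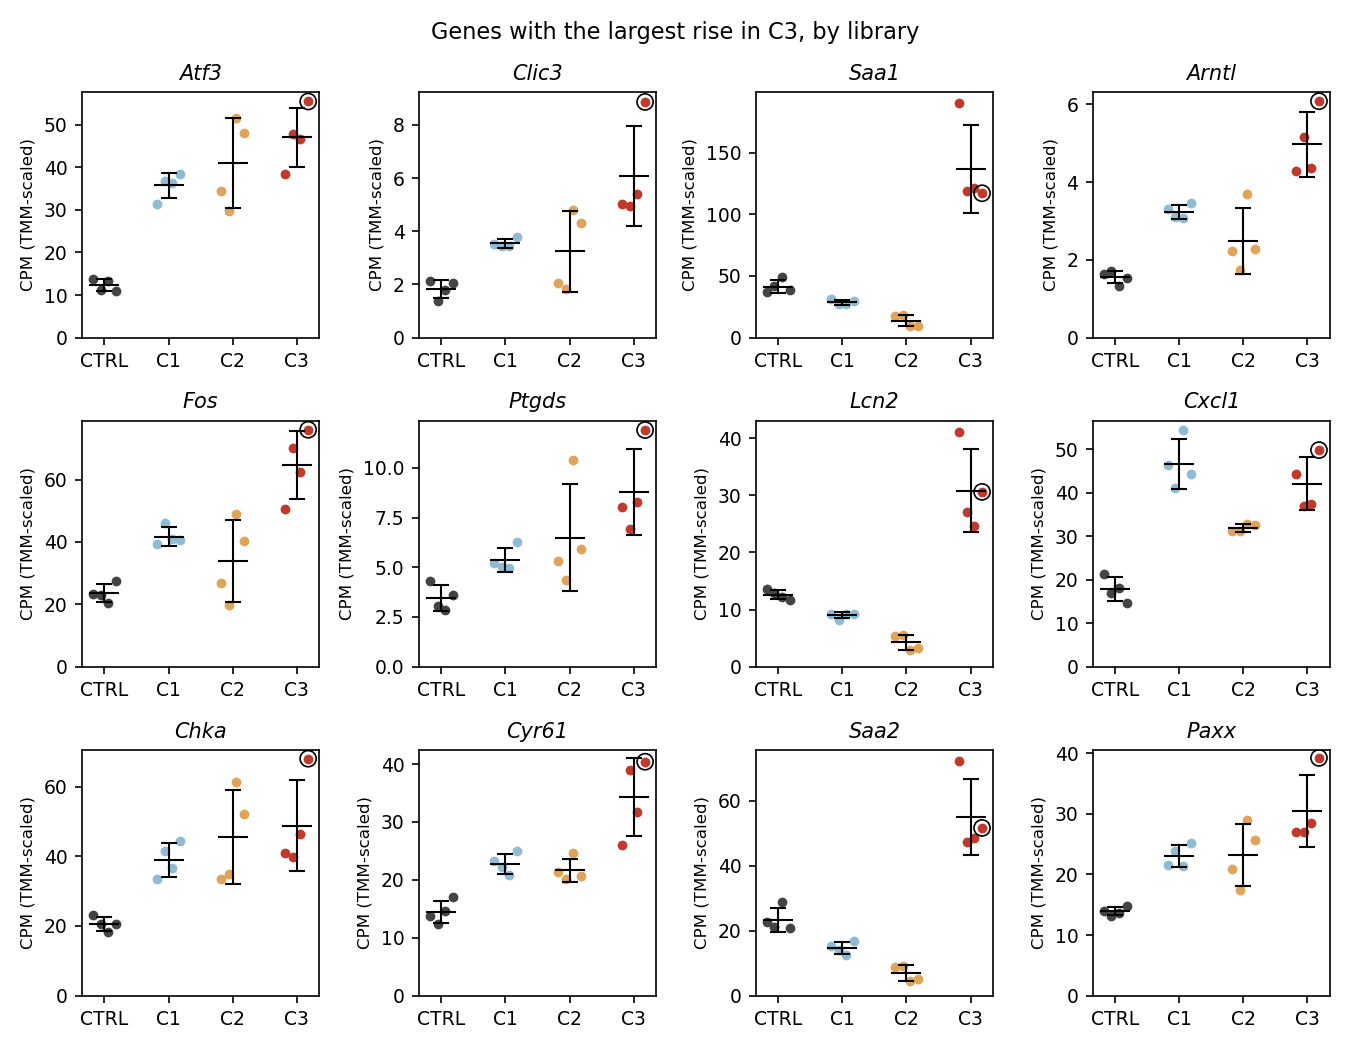
CPM in every library (vertical axis, from 0) of the 12 genes with the largest rise in C3, by group (horizontal axis), with the mean and SD of 4 libraries as black bars and C3-4 ringed. All 4 C3 points lie above all 4 CTRL points in each panel, which the rule for naming genes required. In the panels of Saa1, Saa2 and Lcn2 the C1 and C2 points lie below the CTRL points, and in those of Atf3, Chka and Cxcl1 they lie above.

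Single genes of other stress and plasma protein groups also rose. C8a, a chain of complement component 8, had 116.0, 96.5, 99.5 and 88.0 CPM in C3 and 52.5, 52.5, 50.5 and 42.1 CPM in CTRL, a log2 fold change of 1.02 ± 0.12 (adjusted p = 0.000194). Among the 42 complement and coagulation factors (median -0.14, or -0.01 without C3-4) the other called gene, coagulation factor F11, fell by 0.41 (adjusted p = 0.0183). The F11 call was lost without C3-1, C3-3, C3-4, CTRL-2, CTRL-3 or CTRL-4 (adjusted p up to 0.0749). Of the 42, 4 rose and 4 fell without the 3 nuclear-rich libraries. Atf4, the transcription factor of the integrated stress response, rose by 0.52 ± 0.09 (adjusted p = 0.00495), from 78.6 to 88.5 CPM in CTRL to at least 113.0 CPM in every C3 library. It was the only gene of the 21 in its list that edgeR called (median -0.12, or -0.07 without C3-4), while DESeq2 called 2 higher and 1 lower and the fit without the 3 nuclear-rich libraries 2 higher and 3 lower. The Atf4 call was lost in another edgeR setting, with an adjusted p of up to 0.0691. The aminotransferase gene Gpt2 (282 ± 15.7 against 309 ± 11.9 CPM, adjusted p = 0.605) and Atf5 (180 ± 31.7 against 196 ± 47.0 CPM, adjusted p = 0.741) were not called. Hspa1b, an inducible HSP70 chaperone, averaged 29.7 ± 5.66 CPM in C3 and 17.3 ± 4.40 CPM in CTRL (log2 fold change 0.78, adjusted p = 0.0196). Its call was lost without C3-2, C3-3, CTRL-1, CTRL-2 or CTRL-3, with adjusted p between 0.0533 and 0.0924, and without C3-1 or CTRL-4 the list held 2 calls. The other 17 heat shock genes were not called by edgeR, while DESeq2 and limma-voom each called 2 of the 18 higher, as did edgeR without the 3 nuclear-rich libraries. The log2 fold changes of Hspa1a, the near-identical copy of Hspa1b, and of the small heat shock protein gene Hspb1 were 0.80 and 0.76. The most abundant genes of the list were not called, with Hspa8 at 1083 ± 267 against 1274 ± 112 CPM (adjusted p = 0.682) and Hsp90ab1 at 385 ± 74.3 against 448 ± 104 CPM (adjusted p = 0.612).

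Among 35 measured PPARα targets, many of them genes of fatty acid uptake, oxidation and storage, 10 fell and none rose. That is 28.6% of the list, and its median log2 fold change was -0.44. The falls included Vnn1, Cd36, Cyp4a14 and Retsat, the acyl-CoA thioesterases Acot1 (-0.70) and Acot2 (-0.74), the peroxisomal division factor Pex11a (-0.57), Cpt1a and Slc25a20. Without C3-4, 7 of 35 fell (median -0.30), without CTRL-3 5 fell, with adjusted p of 0.0559 for Acot1 and 0.0518 for Acot2, and without C3-4, C2-3 and C2-4 18 fell and 1 rose. Vnn1, the pantetheinase that recycles pantothenate, had 7.88, 7.77, 5.30 and 4.28 CPM in C3 and 29.3, 34.4, 34.1 and 25.0 CPM in CTRL. The groups lay far apart, and Vnn1 fell by 2.28 on the log2 scale (SE 0.24, adjusted p = 0.000136) and was 4.86-fold lower in C3. Cd36, a fatty acid uptake receptor, had 20.0, 18.3, 16.4 and 16 CPM in C3 and 42.7, 51.4, 46.6 and 36.4 CPM in CTRL. It fell by 1.32 (SE 0.20, adjusted p = 0.00159) and by 1.27 without C3-4. Cyp4a14, a fatty acid ω-hydroxylase, averaged 31.4 ± 9.21 CPM in C3 and 64.5 ± 7.56 CPM in CTRL (log2 fold change -1.04, adjusted p = 0.0301). That call was lost without C3-4 (adjusted p = 0.12) and without any other library except C3-1, with adjusted p from 0.0568. Well-known targets that were not called include Fgf21 (-0.07), Angptl4 (-0.28) and Pdk4 (0.34). Hepatocyte marker RNA was lower in C3 too, as given above, and its part in these falls was not tested.

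Ketone bodies are made from fatty acids in liver mitochondria. Of 8 measured genes of ketone body metabolism 2 fell and 1 rose, with a median of -0.31. Without C3-4 1 fell and 1 rose with a median of -0.18, and without the 3 nuclear-rich libraries 3 fell and 1 rose. Bdh1, which interconverts the ketone bodies, averaged 174 ± 38.3 CPM in C3 and 276 ± 27.8 CPM in CTRL (log2 fold change -0.67, adjusted p = 0.0325). Its call was lost without C3-1, C3-3, C3-4, CTRL-2, CTRL-3 or CTRL-4 (adjusted p up to 0.116). Aacs, a cytosolic enzyme that returns acetoacetate to lipid synthesis, was higher at 186 ± 11.3 against 133 ± 8.73 CPM (log2 fold change 0.48, adjusted p = 0.0222). The Aacs call was lost without C3-3, CTRL-1, CTRL-2 or CTRL-3, with adjusted p up to 0.0982. Without C3-3, CTRL-2 or CTRL-3 the list had 1 call.

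Of 32 genes of fatty acid β-oxidation 3 fell (9.38%), with a median of -0.35. Of these, Cpt1a and Slc25a20 encode steps of the carnitine shuttle that brings fatty acids into mitochondria. Cpt1a, its first enzyme, averaged 126 ± 11.5 CPM in C3 and 182 ± 11.2 CPM in CTRL (log2 fold change -0.53, adjusted p = 0.0258). The carrier Slc25a20 (-0.46, adjusted p = 0.0316) and carnitine acetyltransferase Crat (-0.47, adjusted p = 0.0293) were also lower. None of the 3 was called without C3-1, C3-3, C3-4, CTRL-2, CTRL-3 or CTRL-4 (adjusted p up to 0.124), and 1 was called without CTRL-1. Without C3-4, C2-3 and C2-4, 14 of the 32 fell, and the median was -0.24 without C3-4.

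Of 26 genes of fatty acid and triglyceride synthesis 3 fell (median -0.16), and without the 3 nuclear-rich libraries 10 fell and 1 rose. Fads2, the delta-6 desaturase, averaged 115 ± 21.6 CPM in C3 and 190 ± 19.1 CPM in CTRL (log2 fold change -0.72, adjusted p = 0.0141), and its call was lost without C3-1 (adjusted p = 0.0536) or CTRL-4 (0.0569). Acly, which makes cytosolic acetyl-CoA, was at 218 ± 10.0 against 303 ± 9.44 CPM (-0.47, adjusted p = 0.0233). Elovl6, a fatty acid elongase, was at 149 ± 8.73 against 196 ± 5.35 CPM (-0.40, adjusted p = 0.0437). Neither of the latter was called once any 1 of the 8 libraries was left out, with adjusted p from 0.0509 to 0.0812 for Acly and 0.073 to 0.142 for Elovl6, so that the list held 0 or 1 call in those fits.

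Of 25 genes of cholesterol synthesis 2 rose and none fell, with a median of 0.14. Insig1, which holds SREBP processing in check, had 865, 851, 875 and 799 CPM in C3 and 537, 593, 569 and 522 CPM in CTRL. The groups did not overlap, and the log2 fold change was 0.61 ± 0.11 (adjusted p = 0.00999). Pmvk, phosphomevalonate kinase, averaged 48.1 ± 3.22 CPM in C3 and 34.0 ± 2.20 CPM in CTRL (0.50, adjusted p = 0.00788). Both were called in all 8 fits that left out 1 library. In other edgeR settings these calls were lost, with an adjusted p of up to 0.0877 for Insig1 and 0.0664 for Pmvk. Without C3-4, C2-3 and C2-4, 10 of the 25 rose. Among 35 lipoprotein and lipid droplet genes 1 rose and 1 fell (median -0.24, or -0.14 without C3-4), and without the 3 nuclear-rich libraries 2 rose and 8 fell. Angptl8, an insulin-responsive inhibitor of lipoprotein lipase, had 107.0, 102.0, 106.0 and 107.0 CPM in C3 and 61.4, 69.0, 67.4 and 62.8 CPM in CTRL. It rose by 0.70 ± 0.09 (adjusted p = 0.000525), and the annotated Dock6 gene, on the other strand, overlaps it. Pltp, the phospholipid transfer protein, fell by 0.78 (SE 0.14, adjusted p = 0.00847), from 27.6 to 40.0 CPM to 15.1 to 21.7 CPM.

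**Figure D4:**
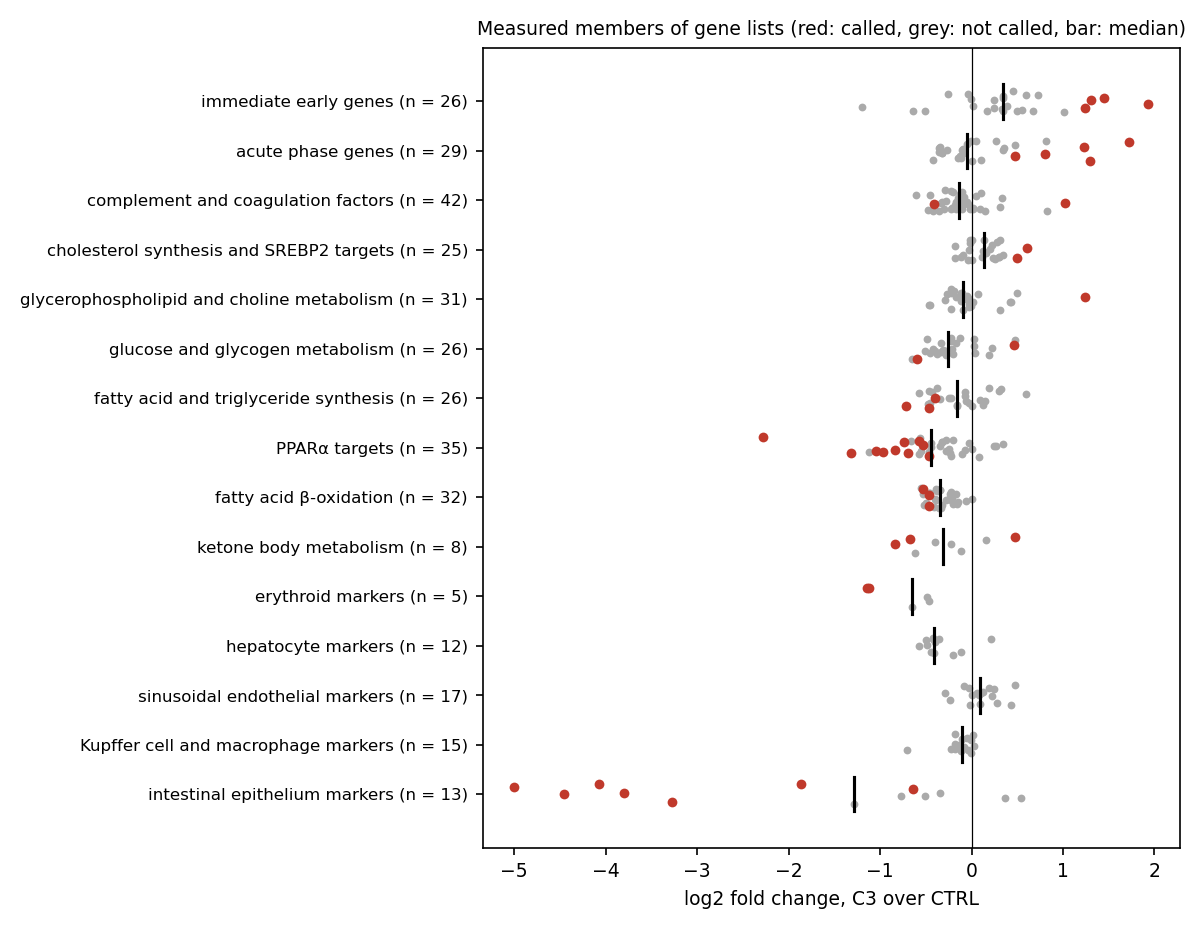
Log2 fold change of C3 over CTRL (horizontal axis) of each measured member of 15 gene lists (rows), with called members in red, the others in grey and the median of each list as a black bar. The medians furthest to the left are those of intestinal epithelium markers (-1.29), erythroid markers (-0.65), PPARα targets (-0.44), hepatocyte markers (-0.41) and fatty acid β-oxidation (-0.35). Only those of immediate early genes (0.34), cholesterol synthesis (0.14) and sinusoidal endothelial markers (0.09) lie to the right of 0.

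Enzymes that process hormones and foreign compounds changed in a few members. Of 36 measured glucuronosyltransferases and sulfotransferases 2 fell, with a median of -0.32, which was -0.19 without C3-4. Without the 3 nuclear-rich libraries 10 fell and 1 rose. The Ugt1a entries of the list had nearly equal values, -0.43 for Ugt1a1 and -0.36 to -0.33 for the others. Their reads may be shared, so that the counts and the median may weigh 1 signal several times. Sult2a3, a sulfotransferase of a family that acts on steroids and bile acids, had 18.4, 11, 13.7 and 8.77 CPM in C3 and 33.5, 34.7, 36.4 and 29.4 CPM in CTRL. It fell by 1.36 (SE 0.22, adjusted p = 0.00294), and reads of its close relatives may be shared. Sult6b2 averaged 0.158 ± 0.104 CPM in C3 and 1.39 ± 0.59 CPM in CTRL (-3.21, adjusted p = 0.00116). It was at 4.80 ± 1.19 CPM in C1 and 0.0513 ± 0.0432 CPM in C2, the order of groups also seen for the intestinal genes Muc13, Alpi and Akp3 described below, and the part of gut RNA in its fall was not tested. Cyp17a1, a steroid 17α-hydroxylase, had 11, 8.01, 11.6 and 7.15 CPM in C3 and 24.5, 26.7, 24.1 and 21.7 CPM in CTRL. The groups were apart, with a log2 fold change of -1.36 ± 0.20 (adjusted p = 0.00123). It was 1 of 3 called genes, all lower, among 23 female-biased liver genes (median -0.32, or -0.21 with 1 call without C3-4, and 8 lower and 1 higher without the 3 nuclear-rich libraries), with Cyp4a14 and the peroxisomal transporter Abcd2 (-0.59, adjusted p = 0.0437). The Abcd2 call was lost once any 1 library was left out, with adjusted p from 0.064 to 0.173, and the list then held 1 or 2 calls. Periportal genes held Cyp17a1 as their 1 call among 18 (median -0.18), and without the 3 nuclear-rich libraries 4 fell and 1 rose. Cyp2a22, a cytochrome of the Cyp2a family, averaged 216 ± 9.06 CPM in C3 and 309 ± 15.1 CPM in CTRL (-0.52, adjusted p = 0.0172), and the call was lost without C3-2, C3-3, CTRL-2 or CTRL-3, with adjusted p up to 0.0782.

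Of 24 measured NRF2 antioxidant genes 2 fell (median -0.23). Without C3-4 1 fell and the median was -0.14, and without the 3 nuclear-rich libraries 5 fell and 1 rose. G6pdx, which supplies NADPH, averaged 3.99 ± 0.404 CPM in C3 and 6.66 ± 0.155 CPM in CTRL (-0.73, adjusted p = 0.0106), and was not called without C3-3 (adjusted p = 0.0513). Ephx1, the microsomal epoxide hydrolase, was at 76.0 ± 15.4 against 122 ± 10.8 CPM (-0.68, adjusted p = 0.0385), with a call that held only without C3-2 among the 8 fits that left out 1 library and an adjusted p of up to 0.14 in the others. Of 22 retinoid genes 3 fell (median -0.22). Without C3-4 2 fell and the median was -0.10, and without the 3 nuclear-rich libraries 6 fell and 1 rose. Retsat, retinol saturase, had 149, 182, 166 and 101 CPM in C3 and 260, 303, 286 and 317 CPM in CTRL. Its log2 fold change was -0.97 ± 0.18 (adjusted p = 0.00826), and the overlapping transcript Gm45053 on the other strand also fell (-1.02). Cyp26b1, which degrades retinoic acid, was at 3.21 ± 0.27 against 5.27 ± 0.602 CPM (-0.72, adjusted p = 0.0188), and its call was lost without C3-1, C3-3, C3-4, CTRL-1 or CTRL-2, with adjusted p up to 0.067. The third was Rbp2, described with the intestinal genes.

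Of 26 genes of glucose and glycogen metabolism 1 rose and 1 fell, with a median of -0.25. Without C3-4 none was called, and without the 3 nuclear-rich libraries 2 rose and 9 fell. Gys2, liver glycogen synthase, averaged 53.2 ± 4.73 CPM in C3 and 80.8 ± 8.49 CPM in CTRL (log2 fold change -0.60, adjusted p = 0.0284). Of the 8 fits that left out 1 library, Gys2 was called only in that without C3-1 (adjusted p of up to 0.124 in the others), and the list held 1 call there and none in the rest. Fkbp5, a glucocorticoid-induced chaperone partner of the receptor, had 28.3, 30.9, 30.1 and 30.2 CPM in C3 and 43.9, 43.5, 42.4 and 49.4 CPM in CTRL. It fell by 0.59 (SE 0.09, adjusted p = 0.00221) while Lcn2, on the same list of 22 glucocorticoid responsive genes (median -0.18), rose. On that list 2 rose and 9 fell without the 3 nuclear-rich libraries. Krt23, a keratin, fell by 1.47 (SE 0.16, adjusted p = 0.000161), from 2.92 to 3.55 CPM to 1.09 to 1.33 CPM. Il1rn, the interleukin 1 receptor antagonist, averaged 1.32 ± 0.387 CPM in C3 and 3.03 ± 0.493 CPM in CTRL (-1.18, adjusted p = 0.0239), and its call was lost without C3-2, C3-3, CTRL-1, CTRL-3 or CTRL-4, with adjusted p up to 0.0942.

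Several of the largest falls were in genes of the intestinal epithelium and of mucosal antibody. Of 13 measured intestinal markers (18 listed) 7 fell and none rose, with a median of -1.29, and without C3-4 6 fell (median -2.0). Without the 3 nuclear-rich libraries 9 fell and 1 rose. Muc13, a membrane mucin, had 0, 0.0954, 0.0495 and 0 CPM in C3 and 1.88, 2.56, 3.49 and 0.404 CPM in CTRL. CTRL-4 was the lowest CTRL library and still above every C3 library. Over the pooled libraries these were 3 counts in C3 and 239 in CTRL, a ratio of 65.4 per count sequenced (exact 95% interval 22.1 to 320.0). The intestinal alkaline phosphatases Alpi (5 against 239 counts, ratio 39.3, interval 16.6 to 122.0) and Akp3 (0.253 ± 0.257 against 4.27 ± 0.846 CPM) lie side by side on chromosome 1. Their log2 fold changes were -5.25 ± 0.55 (adjusted p = 0.000226) and -4.17 ± 0.48 (adjusted p = 0.000402). Among the markers the regenerating protein Reg1 fell from 1.13 to 2.21 CPM to 0 to 0.0991 CPM (adjusted p = 6.91e-05), with 5 against 198 counts. Sucrase-isomaltase, Sis, had 3 against 87 counts (ratio 23.8, interval 7.88 to 118.0, adjusted p = 0.00303). Sis did not pass the filter on low counts when only the 8 libraries of C3 and CTRL were fitted. It was tested here through its counts in C1 (4.39 ± 1.18 CPM), so that its call, 1 of the 7, depends on a group outside the comparison. Rbp2, a retinol binding protein of enterocytes, had 6 against 126 counts (adjusted p = 0.000525), and the keratin Krt20 9 against 151 (adjusted p = 0.000368). Cdh17 (-3.27), Vil1 (-1.86) and Anpep (-0.64) were the other called markers. The Vil1 call was lost without C3-1, C3-2, C3-3, CTRL-1, CTRL-2 or CTRL-3 (adjusted p up to 0.149), and that of Anpep without C3-3, C3-4 or CTRL-4 (up to 0.0583). The intervals cover counting error alone.

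Another 3 of the 12 largest falls were low in every C3 library. Prap1, a proline-rich protein, had 0.128 to 0.446 CPM in C3 and 1.37 to 3.99 CPM in CTRL (-3.40 ± 0.42, adjusted p = 0.000368). S100g, a vitamin D-dependent calcium binding protein, had 0.143 to 0.385 CPM in C3 and 0.525 to 2.82 CPM in CTRL (-3.08 ± 0.49, adjusted p = 0.00238). Igha, the constant region of immunoglobulin A, had 1.62, 1.38, 1.64 and 1.71 CPM in C3 and 7.97, 8.49, 10.1 and 4.89 CPM in CTRL (-2.31 ± 0.29, adjusted p = 0.000377). CTRL-4 was the lowest CTRL library in all 3. Igkc was the other call among 10 measured B and plasma cell markers (median -0.05, or -0.18 without C3-4), at 4.70 ± 0.821 against 8.41 ± 2.21 CPM (adjusted p = 0.0486), and it was lost without C3-2, C3-3, C3-4, CTRL-1, CTRL-2 or CTRL-3, with adjusted p up to 0.18. The marker list of these cells summed to 18 to 20.5 CPM in C3 and 22.1 to 37.8 CPM in CTRL.

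The 18 intestinal markers summed to 513 to 871 CPM in C3 and 1045 to 1357 CPM in CTRL, of which most came from Apoa4, Mttp and Anpep, genes that hepatocytes also express. Without those 3 the sums were 60.4 to 70.5 CPM in C3, 65.1 to 90.2 CPM in CTRL, 92.2 to 107.0 CPM in C1 and 65.6 to 94.2 CPM in C2. Reg3b was at 0 counts in both C3 and CTRL. Of the 50 genes that were at least 2-fold lower in C3, 29 had a CTRL mean under 2 CPM, and 5 had 0 counts in all C3 libraries against 37 to 92 in CTRL. In 19 of the 50 every C1 library was above every CTRL library, as it was for 8.03% of all tested genes. The part of gut RNA in these falls was not tested. In pooled tissue, fewer cells of a type and less RNA per cell cannot be told apart.

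**Figure D5:**
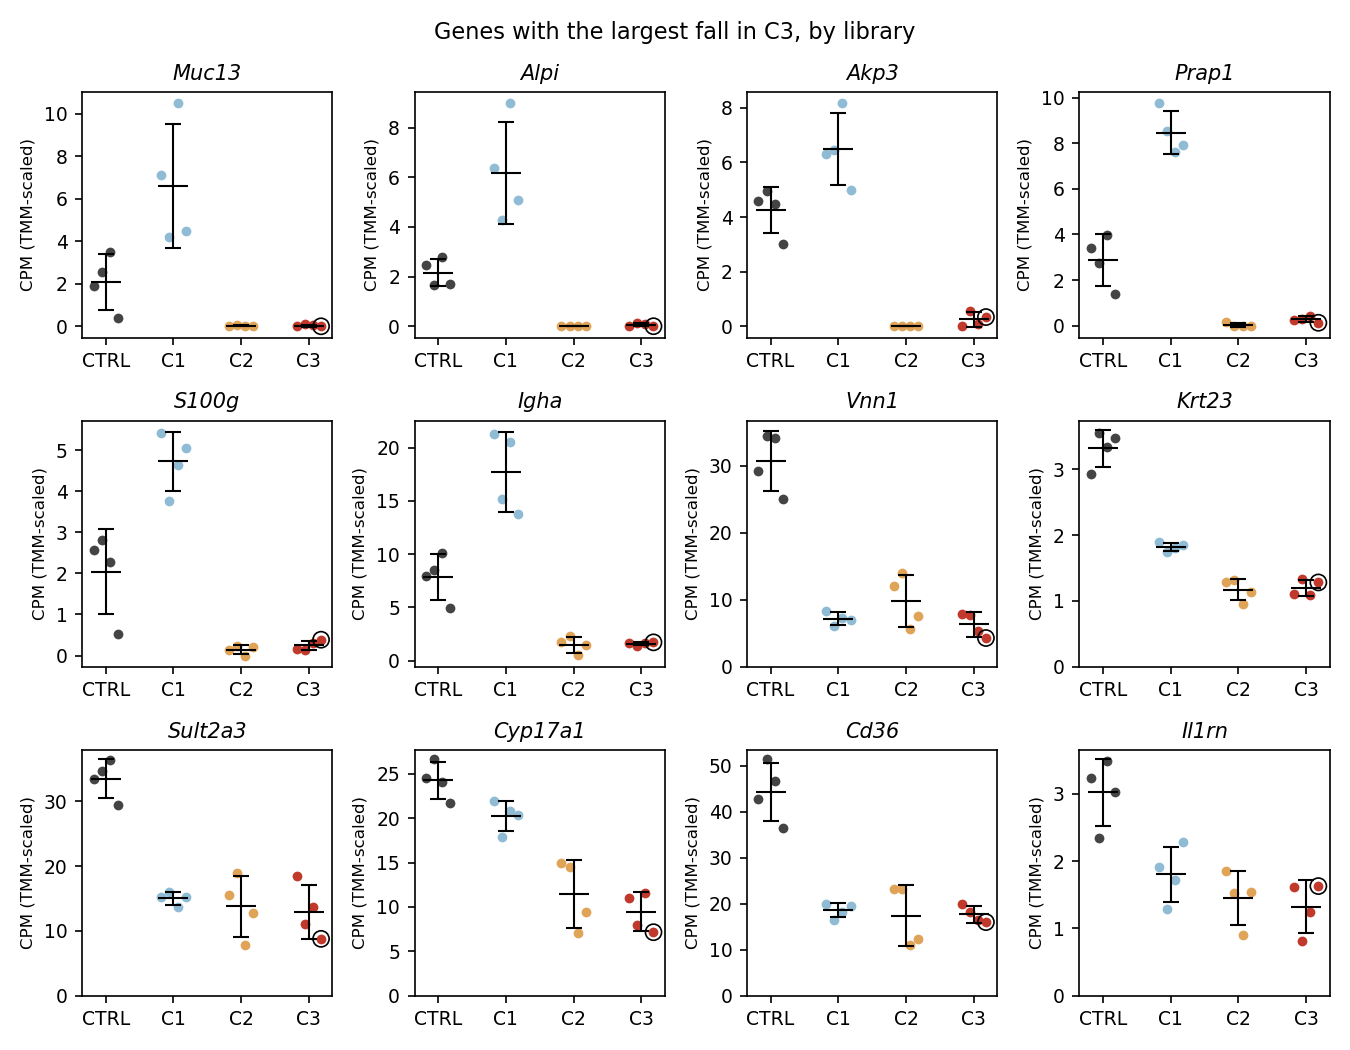
CPM in every library (vertical axis, from 0) of the 12 genes with the largest fall in C3, by group (horizontal axis), with the mean and SD of 4 libraries as black bars and C3-4 ringed. From Muc13 to Igha the C1 libraries are the highest and the C2 and C3 libraries are near 0 or low, and for Vnn1, Sult2a3 and Cd36 all 3 exposed groups lie below CTRL.

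Alpha globin RNA of red blood cells was also lower. Hba-a1 had 338, 364, 379 and 375 CPM in C3 and 717, 726, 931 and 781 CPM in CTRL, a log2 fold change of -1.12 ± 0.18 (adjusted p = 0.00221), and Hba-a2 fell by 1.14 (adjusted p = 0.00211). The copies are near-identical. The beta globin genes Hbb-bt (-0.49) and Hbb-bs (-0.47) and Alas2 (-0.65), the erythroid heme synthesis enzyme, were not called, which left 2 calls among 5 measured erythroid markers (median -0.65, or -0.45 without C3-4). The erythroid markers summed to 1091 to 1642 CPM in C3 and 2115 to 2764 CPM in CTRL. The part of blood cell content in this result was not tested.

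Markers of the resident liver cells gave no call with edgeR on all 16 libraries. None of 12 hepatocyte markers (median -0.41), 17 sinusoidal endothelial markers (0.09) and 15 Kupffer cell and macrophage markers (-0.10) was called by edgeR, limma-voom or, with 1 exception among the hepatocyte markers, DESeq2. An unadjusted p under 0.05 was found for 5, 4 and 1 of them, and for 15.9% of all genes tested. Alb averaged 32227 ± 8485 CPM in C3 and 47954 ± 5147 CPM in CTRL (adjusted p = 0.347), and Trf, transferrin, 7872 ± 1139 and 10114 ± 910 CPM (adjusted p = 0.314). The endothelial genes Fcgr2b (37.6 ± 4.58 against 33.0 ± 1.97 CPM, adjusted p = 0.354) and Ehd3 (29.2 ± 0.787 against 34.6 ± 2.76 CPM, adjusted p = 0.177) and the Kupffer cell genes Clec4f (102 ± 12.8 against 106 ± 16.5 CPM, adjusted p = 0.893) and Cd5l (68.4 ± 18.6 against 69.0 ± 12 CPM, adjusted p = 0.984) were not called. With C3-4, C2-3 and C2-4 left out, 6 hepatocyte markers fell, 1 endothelial marker rose and 1 fell, and 1 Kupffer cell marker fell.

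None of the 4 nuclear-retained RNAs was called by edgeR on all 16 libraries or by limma-voom, and DESeq2 called 1, higher. For 3 of the 4 every C3 library was above every CTRL library, as it was for 5.53% of all tested genes. Without C3-4, C2-3 and C2-4 edgeR called 3 of them higher, Neat1 (0.49, adjusted p = 0.00119), Kcnq1ot1 (0.78, adjusted p = 0.00808) and Malat1 (0.45, adjusted p = 0.0203), and not Xist (0.17, adjusted p = 0.353). Malat1 had 2183, 2106, 2276 and 3632 CPM in C3 and 2077, 1323, 1430 and 1543 CPM in CTRL (adjusted p = 0.257). Neat1 averaged 1186 ± 352 against 718 ± 76.2 CPM (adjusted p = 0.133), Kcnq1ot1 57.9 ± 22.2 against 27.2 ± 7.64 CPM (adjusted p = 0.161) and Xist 1224 ± 389 against 915 ± 121 CPM (adjusted p = 0.365). The list's median log2 fold change was 0.70, and 0.48 without C3-4. The part of nuclear RNA content in the 93 higher genes was not tested beyond the fits without those libraries.

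A further 7 function lists had 1 call each. They were amino acid catabolism and the urea cycle (Csad, which makes taurine, -0.68, of 41 genes with a median of -0.13), metallothioneins and zinc transporters (Slc39a4, -0.65, of 11, median -0.01) and the lysosome (the cholesterol exporter Npc1, -0.45, of 36, median -0.21). The others were the cell cycle (the replication licensing factor Mcm4, -0.71, of 23, median -0.28), histone cluster genes (Hist1h1d, 1.31, of 41, median -0.25), interferon-stimulated genes (Irf1, 0.38, of 37) and pericentral genes (Tbx3, 0.77, of 20, median -0.04). Without the 3 nuclear-rich libraries the higher and lower calls were 3 and 3, 1 and 1, 0 and 7, 0 and 2, 1 and 0, 2 and 0 and 3 and 1 for these lists in the order given. The Csad call held without any 1 library. The other 6 were each lost without C3-4 and also without CTRL-3, and Slc39a4, Irf1, Npc1, Mcm4, Hist1h1d and Tbx3 were lost in 7, 7, 6, 6, 6 and 4 of the 8 fits that left out 1 library, with adjusted p between 0.053 and 0.173. Exocrine pancreas markers held 1 call among 3 measured of 15 listed, the amylase Amy2a5 (-3.85), lost once any 1 library was left out (adjusted p from 0.0585 to 0.173). The defining markers Prss1, Pnlip, Try4 and Try5 were at 0 counts, and the 15 summed to 12.6 to 19.8 CPM in C3 and 12.4 to 18.3 CPM in CTRL.

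No member was called by edgeR on all 16 libraries in 14 function lists. Over all genes tested, 15.9% had an unadjusted p under 0.05 and DESeq2 called 4.31%. Of the lists tied to foreign compounds, 26 bile acid genes (median 0.00) had 8 members with an unadjusted p under 0.05 and 3 called by DESeq2. The 34 genes that respond to the receptors CAR and PXR (-0.15) had 8 and 3, the 7 aryl hydrocarbon receptor targets (-0.12) 2 and 0, and the 16 carboxylesterases (-0.05) 1 and 1. The same 2 counts were 8 and 0 for 26 heme and iron genes (-0.17), 2 and 1 for 19 genes of the growth hormone, insulin and IGF axis (-0.08), and 4 and 0 for 24 genes of endoplasmic reticulum protein folding stress (-0.19). They were 2 and 1 for 20 p53 targets (0.05), 7 and 2 for 22 antigen presentation genes (-0.01), and 5 and 1 for 20 male-biased liver genes (-0.09). For the protein and energy machinery they were 8 and 2 for 75 nuclear-encoded oxidative phosphorylation subunits (-0.11), 0 and 0 for 13 mitochondrial genome genes (0.02), 5 and 0 for 80 ribosomal protein genes (-0.08) and 8 and 2 for 38 proteasome subunits (-0.11). Limma-voom called 1 male-biased gene and no other of these. These lists were not without calls in every fit. Without the 3 nuclear-rich libraries edgeR called 5 bile acid genes higher and 5 lower, 4 CAR and PXR genes higher and 6 lower, 5 male-biased genes higher and 1 lower, and 1 oxidative phosphorylation gene higher and 6 lower. It then called 4 ribosomal protein genes higher, 4 proteasome genes lower, 3 endoplasmic reticulum genes lower, 2 heme and iron genes higher and 2 lower, 1 growth hormone axis gene higher and 2 lower, and 2 antigen presentation genes higher and 1 lower. The remaining calls were 1 higher and 1 lower among p53 targets, 1 lower among aryl hydrocarbon receptor targets, and 1 higher each among carboxylesterases and mitochondrial genome genes.

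Nor did edgeR on all 16 libraries call any member among 15 stellate cell and matrix, 8 cholangiocyte, 15 T and NK cell, 2 neutrophil, 2 adipocyte, 5 mesothelial and 8 muscle markers that were measured. Unadjusted p was under 0.05 for 1, 4, 1, 2, 0, 0 and 0 of them, beside 15.9% of all genes tested. DESeq2 called 1, a neutrophil marker, while limma-voom called none. Without the 3 nuclear-rich libraries edgeR called 1 muscle marker, lower, and no other of these. The summed levels of each list overlapped between C3 and CTRL, with stellate markers at 238 to 263 against 233 to 253 CPM and neutrophil markers at 2.43 to 4.92 against 1.71 to 2.96 CPM.

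C3 was next set against the lower doses directly, in contrasts of the same model. C3 differed from C1 (0.1 mg/L) in 155 genes (0.870%), 63 higher and 92 lower, and from C2 (1 mg/L) in 257 genes (1.44%), 209 higher and 48 lower. The C2 count rested on the libraries used, with 14 genes when only the 8 libraries of C3 and C2 were fitted and 2645 without C3-4, C2-3 and C2-4. It was 70 without C3-2, 72 without C3-3, 442 without C3-4, 159 without CTRL-2 and 157 without CTRL-3. Against C1 the count was 630 without C3-4, C2-3 and C2-4.

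The serum amyloid genes and Lcn2 showed the widest gap between doses among the 12 genes with the largest rise. Saa1 averaged 137 ± 35.4 CPM in C3, 28.8 ± 2.05 CPM in C1 and 13.8 ± 4.84 CPM in C2, beside 41.4 ± 5.31 CPM in CTRL. Every C1 and C2 library was below every CTRL library, and every C3 library was above. C3 exceeded C1 by 2.25 ± 0.21 (log2, adjusted p = 7.39e-06) and C2 by 3.28 ± 0.22 (adjusted p = 8.23e-08), or 2.98 without C3-4, C2-3 and C2-4. Lcn2 averaged 30.8 ± 7.30, 9.00 ± 0.527 and 4.26 ± 1.36 CPM in C3, C1 and C2, and C3 exceeded them by 1.78 ± 0.18 (adjusted p = 2.22e-05) and 2.81 ± 0.19 (adjusted p = 8.34e-08). Saa2 differed in the same way, by 1.91 and 2.94.

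Other genes that rose in C3 stood nearer to the lower doses. Of the 12, 4 differed from C1 (Saa1, Saa2, Lcn2 and Cyr61) and 6 from C2 (these and Arntl and Fos). Cyr61 exceeded C1 by 0.59 ± 0.13 (adjusted p = 0.045) and C2 by 0.66 ± 0.13 (adjusted p = 0.0195). Arntl exceeded C2 by 1.02 ± 0.20 (adjusted p = 0.0155) and Fos exceeded it by 0.94 ± 0.21 (adjusted p = 0.0315). Without C3-4, C2-3 and C2-4 the Arntl and Fos differences from C2 were 1.19 and 1.36, and Fos then also exceeded C1, by 0.55 (adjusted p = 0.00558). Atf3 averaged 35.7 ± 2.98 CPM in C1 and 40.9 ± 10.5 CPM in C2 beside 47.0 CPM in C3. The C3 difference was 0.40 ± 0.16 from C1 (adjusted p = 0.485) and 0.20 ± 0.16 from C2 (adjusted p = 0.672), which does not show that the doses act alike. Without C3-4, C2-3 and C2-4 Atf3 was higher in C3 than in C2, by 0.44 (adjusted p = 0.00994), and so were Clic3 (1.38, adjusted p = 5.74e-05), Paxx (0.50, adjusted p = 0.0024) and Ptgds (0.66, adjusted p = 0.0115). Ptgds then also exceeded C1, by 0.53 (adjusted p = 0.0486). Angptl8 was lower in C3 (106 ± 2.48 CPM) than in C1 (143 ± 6.14 CPM) by 0.43 and than in C2 (158 ± 7.82 CPM) by 0.58 on the log2 scale (adjusted p = 0.0282 and 0.0039).

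Among the 12 genes with the largest fall, 7 differed from C1 and none from C2. Of the 7, Muc13, Alpi, Akp3, Prap1, S100g and Igha were higher in every C1 library than in any CTRL library. Muc13 averaged 6.58 ± 2.91 CPM in C1 and 0.019 ± 0.0249 CPM in C2, Alpi 6.18 ± 2.07 CPM in C1 and 0 CPM in C2, and Igha 17.7 ± 3.77 CPM in C1 and 1.5 ± 0.754 CPM in C2. The C3 difference from C1 was -3.47 ± 0.30 for Igha (adjusted p = 5.02e-06). The seventh gene was Cyp17a1, with 20.3 ± 1.67 CPM in C1 against 9.43 ± 2.18 CPM in C3 (-1.10 ± 0.20, adjusted p = 0.00778). It was at 11.5 ± 3.85 CPM in C2, and without C3-4, C2-3 and C2-4 it was lower in C3 than in C2 as well, by 0.54 (adjusted p = 0.00635). Vnn1 averaged 7.18 ± 0.93 CPM in C1, 9.77 ± 3.89 CPM in C2 and 6.31 ± 1.80 CPM in C3, and C3 differed from C1 by -0.19 ± 0.25 and from C2 by -0.65 ± 0.24 (adjusted p = 0.974 and 0.241). Without C3-4, C2-3 and C2-4 Vnn1 was lower in C3 than in C2, by 0.90 (adjusted p = 0.000733). Cd36 averaged 18.6 ± 1.51, 17.4 ± 6.65 and 17.7 ± 1.83 CPM in C1, C2 and C3, with a difference of -0.07 ± 0.20 from C1 (adjusted p = 0.991).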

How the data were processed

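Liver RNA was measured in 16 libraries of 4 groups. Per the labels' protocols, RNA came from flash-frozen liver (RNeasy), was selected for poly(A) with a NEBNext kit and sequenced as Ultra II Directional libraries. Tools listed in the submitters' processing notes are STAR 2.5.2b, FastQC 0.11.5 and bcl2fastq 2.19.1.403, with the build GRCm38. The authors deposited raw counts per gene, not normalised. Counting program, strand setting and annotation release: not given in the sources used here. Values of antisense partners, overlapping genes and close copies are therefore uncertain. Of the 61 called genes named by the rule, 25 overlap another annotated gene.

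From the deposited counts, 17810 genes passed filterByExpr, of 32916 with any count. The filter used all 16 libraries, so that a gene could pass on its counts in C1 or C2 alone. TMM factors and the robust quasi-likelihood test (glmQLFTest after glmQLFit) came from edgeR 4.0.16 under R 4.3.3. The single model held 16 libraries with the group as its term and no block (12 residual degrees of freedom, common biological coefficient of variation 0.189). Calls are at a Benjamini-Hochberg adjusted p under 0.05 over all tested genes. The SE is the size of the log2 fold change divided by the square root of F. Pooled-count ratios have exact binomial 95% intervals. Coordinates and gene types come from GENCODE M21, which held 53267 of 53372 identifiers, 49723 with the same symbol. The deposited symbols are printed, and 98 belong to more than 1 identifier. Library pairs within C3 and within CTRL differed by more than counting noise (chi-square per degree of freedom 6.27 to 117 over 12 pairs). On simulated counts of the same comparison (17622 genes), the test recovered 29.9%, 74.6% and 98.5% of 1.5-, 2- and 4-fold changes, with 3 false calls among 138. The simulation drew every gene independently, and placed changes only in genes above a minimum mean CPM. It held no shift shared by the genes of a library, such as that of the nuclear-rich libraries. Its rates therefore do not measure false calls or recovery in the real comparison.

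Named genes were the 12 per direction with the greatest fold among genes called with and without C3-4, with at least 2 CPM in 1 group, no overlap between C3 and CTRL and no predicted-gene symbol. They also include the 5 most abundant such genes per direction, up to 4 called members per described list (or the 2 most abundant where fewer than 2 were called), and Alb, Xist, Malat1, Neat1 and Kcnq1ot1. The members, the 41 function lists, the 14 marker lists and the nuclear RNA list were chosen with earlier results of these data known. Which 26 lists are described gene by gene was chosen after their counts were seen, as were other members named with their values alone, the genes at least 2-fold lower that were high in C1, the intestinal sum without Apoa4, Mttp and Anpep, the promoters and the motifs. Alternatives were DESeq2 1.42.0, limma-voom (limma 3.58.1), 2 other scalings, 2 other filters, protein-coding genes alone, the compared groups alone, the replicate block and leaving out libraries. Promoter sequences are from RefSeq, which matched 12 of 12 genes with the largest rise. The results of some genes are not reported here.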

Additional observations from a re-analysis of the deposited data

Results flagged for a closer look

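In 17 of 164 groups of 4 libraries 1 library stood far from the other 3, where chance alone marks about 1 in 20 groups. Several of these values are read from the same libraries, and their cause was not tested. C3-4 was the high library for the nuclear RNA index (mean log2 CPM of 9.97), the share of counts in sense intronic genes (0.0219%), Malat1 (3632 CPM), Xist (1804 CPM), Neat1 (1711 CPM), Clic3 (8.86 CPM) and Paxx (39.2 CPM). C3-1 was the high library for the total count (33189711), Saa1 (190.0 CPM), Saa2 (72.2 CPM) and Igkc (5.93 CPM). C3-3 was high for Sis (0.149 CPM) and C3-1 was low for Rbp2 (0 CPM), values of 3 counts or fewer. CTRL-4 was high for Aacs (146 CPM), Atf5 (266 CPM) and Hsp90ab1 (603 CPM). CTRL-1 was low for Ephx1 (106 CPM).

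For 13 of the 24 genes with the greatest rise or fall, the C3 pool differed from the pool of a lower dose by the test of the difference itself. That test is the direct contrast of C3 with the other group, since both share CTRL. Its p holds technical spread alone, so that a dose effect cannot be told apart from a difference between the pooled animals. Against C1 the log2 differences were -7.50 for Muc13, -6.75 for Alpi, -4.76 for Akp3, -4.95 for Prap1, -4.28 for S100g, -3.47 for Igha and -1.10 for Cyp17a1. They were 2.25 for Saa1, 1.91 for Saa2, 1.78 for Lcn2 and 0.59 for Cyr61. Against C2 they were 3.28 for Saa1, 2.94 for Saa2, 2.81 for Lcn2, 0.66 for Cyr61, 1.02 for Arntl and 0.94 for Fos.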

How the results depend on the processing

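The C3 against CTRL count of 249 was 768 with DESeq2, which called all 249, and 1125 without C3-4, C2-3 and C2-4. It was 97 to 210 when 1 library of C3 or CTRL was left out. The count at least 2-fold, 82, was 29 among genes with at least 5 CPM in 4 libraries, 161 with DESeq2, 147 without the 3 libraries and 46 to 75 with 1 left out. The share of called genes that were higher, 37.3% (exact 95% interval 31.3% to 43.7%, which treats genes as independent), was 45.9% with upper-quartile scaling, 48.8% with only the 8 libraries compared and 27.8% to 41.4% with 1 left out. C3 against C1 (155) gave 91 at 5 CPM, 289 with DESeq2, 630 without the 3 libraries and 110 to 149 with 1 left out. C3 against C2 (257) gave 167 with no filter, 614 with DESeq2, 144 with protein-coding genes alone, 2645 without the 3 libraries, 14 with only the 8 libraries compared and 70 to 442 with 1 left out. The causes were not tested. No called named gene changed sign, while Pemt, Atf5, Bhlhe40, Clec4f and Cd5l, none of them called, did so in 1 or more of these settings. Of the 61 called named genes, 39 were called in all 8 fits that left out 1 library and 4 in none of them.

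The replicate numbers did not pair the samples. Deviations of same-numbered C3 and CTRL libraries correlated at -0.22 to 0.16, and 0 of 4 C3 libraries correlated best with their own number. A fit with the replicate number as a block called 256 genes against CTRL, 143 against C1 and 260 against C2. Depth limits genes of a few counts, where the floor of 3 counts over a group is 0.0327 CPM in C3 and 0.0268 CPM in CTRL and covers counting error only.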
